A study of Arabidopsis thaliana with 28 samples.

Results

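Root-only open regions in or near genes are stretches of Arabidopsis chromatin that carried an ATAC-seq peak in every wild-type root library and in no wild-type shoot library. Overlapping peaks of the 12 wild-type (WT, Col-0) libraries were merged into 37790 regions. Of these, 20943 had a peak in all 8 root libraries, 1715 had none in the 4 shoot libraries as well, and 1284 of the 1715 had their midpoint in or within 1 kb of a protein-coding gene. These 1284 regions are the subject here. The other 431 lay farther from genes. The presence or absence of WT peaks chose the regions, so their presence in roots and absence from shoots are a description with no test.

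Tissue was kept for 45 min in liquid medium that held vehicle (control) or 5 µM of the cytokinin benzyladenine (BA), and open DNA in sorted nuclei was tagged with Tn5 transposase. The groups were roots of arr1,10,12, a mutant in the response regulators ARR1, ARR10 and ARR12, with BA (2 libraries) and control (2 libraries), WT roots with BA (4) and control (4), and WT shoots with BA (2) and control (2). The series text calls the replicates biological, and the labels give no allele names, plant age or number of plants. A further 12 RNA-seq samples were not analysed here. The deposited peak lists give coordinates alone, so that the depth is unknown and a region is described by the base pairs of it that lie under a peak in a library (covered length). Each library samples nuclei of many cell types, and a region open in fewer nuclei cannot be told apart from one that is less open in each.

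Open, nucleosome-poor DNA in plants lies mostly next to genes, where transcription factors bind, and part of it differs between organs. The root takes up water and ions through its hairs and epidermis, seals its vascular core with an endodermis that carries a Casparian strip and suberin, and makes specialised metabolites such as triterpenes and coumarins. Cytokinin is sensed by histidine kinase receptors, and phosphotransfer proteins carry the signal to type-B response regulators such as ARR1, ARR10 and ARR12, which are transcription factors. No sequence is printed, since none was used here.

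The libraries held 30778 to 36358 peaks each. Peaks in or within 1 kb of listed genes separated roots from shoots for some lists and not for others. Of 41 nutrient uptake genes, 95.1 to 100% had one in each root library of both genotypes, against 56.1 to 65.9% in each shoot library. Of 30 leaf and photosynthesis genes, 70.0 to 83.3% had one in root libraries and 93.3 to 96.7% in shoot libraries. All 8 broadly used genes had one in all 16 libraries. The root vascular list did not separate the tissues (78.6 to 85.7% in root and in shoot libraries), and the root meristem list met at 71.0%. The peak lists do not show transcripts, so the mutant genotype was not checked.

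The root-only regions were shorter by median than regions near genes with a peak in all 4 shoot libraries, but not than those with 1 to 3. They also had the midpoint beside a gene more often than regions near genes that shoots shared. Their mean covered length over the 8 WT root libraries had a median of 525 bp, against 789 bp for 16849 regions near genes with a peak in all 8 root libraries and in at least 1 shoot library (root-and-shoot regions). Among root-and-shoot regions the median was 507 bp with a peak in 1 shoot library, 518 bp in 2, 490 bp in 3 and 827 bp in 4. The merged width of the root-only regions ran from 219 to 3888 bp. In 1267 of the 1284 a stretch was under a peak in all 8 root libraries at once, with a median length of 328 bp. The midpoint lay in a gene body in 476 root-only regions (37.1%) and in the flanking 1 kb in 808 (62.9%). For root-and-shoot regions the shares were 48.4% in the body and 51.6% in the flank. The midpoint was within 250 bp of a gene end in 50.1% of root-only and 59.7% of root-and-shoot regions. These are descriptions over regions, with no test.

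**Figure D1:**
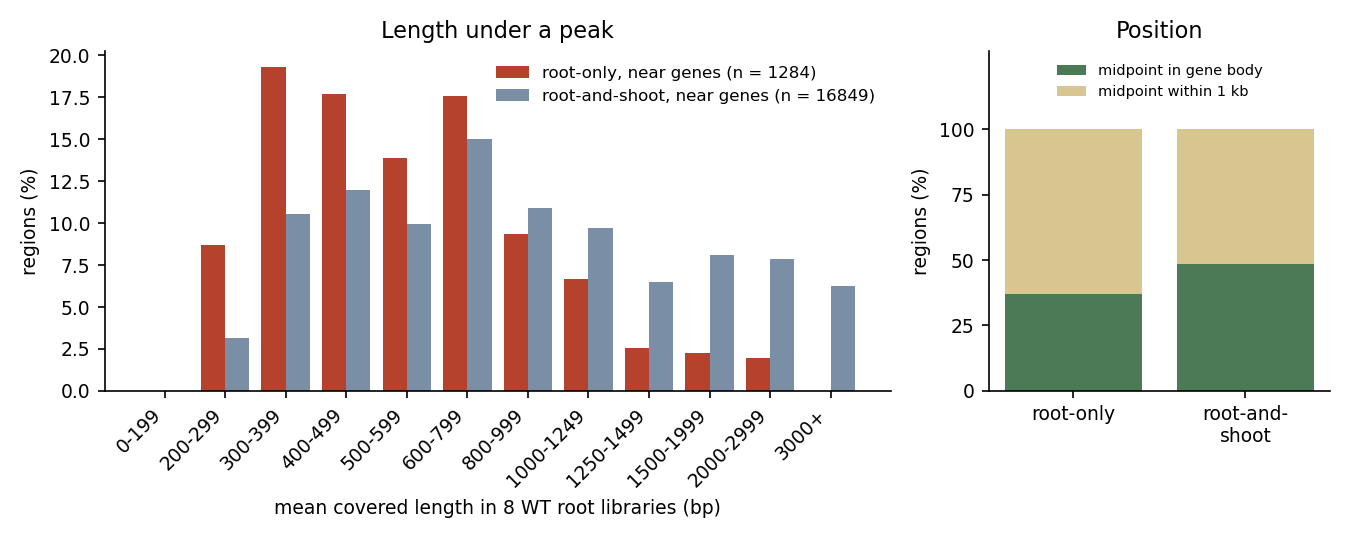
Left, percent of regions (vertical axis) by mean covered length in the 8 WT root libraries in bp (horizontal axis) for root-only regions (red, left bar of each pair) and root-and-shoot regions (grey, right bar). Right, percent of each class with the midpoint in a gene body (green) or within 1 kb of a gene (sand). The root-only regions have medians of 525 bp against 789 bp and 37.1% against 48.4% in gene bodies.

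A shoot peak was often not far away. The gap from a root-only region to the nearest shoot peak had a median of 1315.5 bp, 282 regions (22.0%) lay within 500 bp of one, and 454 (35.4%) lay more than 2000 bp from any. The regions were spread over the genome, with 319, 221, 265, 200 and 279 on chromosomes 1 to 5. They made up 6.58 to 7.82% of root-only and root-and-shoot regions together on each chromosome. Just outside the rule stood 423 regions with a peak in 7 of 8 root and no shoot libraries, with a median of 287 bp, and 443 with a peak in 8 root and 1 shoot library, with a median of 507 bp.

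The region with the largest mean covered length in WT roots was over AT1G13520 (chromosome 1, 4630481 to 4633983). It had 2233 and 2936 bp under a peak in arr1,10,12 BA libraries, 2918 and 2380 bp in arr1,10,12 control libraries, 2704, 3155, 2484 and 2964 bp in WT BA libraries and 3503, 2688, 2204 and 2363 bp in WT control libraries. The groups overlapped. A more even one lay over AT4G15740 (chromosome 4, 8964218 to 8967070), with 2642 and 2632 bp in arr1,10,12 BA, 2767 and 2609 bp in arr1,10,12 control, 2699, 2803, 2567 and 2605 bp in WT BA and 2808, 2735, 2696 and 2560 bp in WT control libraries. The other 8 of the 10 largest were over or nearest to FLS5, a flavonol synthase family gene, AT2G19050, AT1G34040, AT3G16432, MEE15, RAX2, a MYB factor of axillary meristems, LBD13, an LBD family transcription factor gene, and PGSIP5, a glycosyltransferase gene. All 10 had a peak in all 4 arr1,10,12 libraries, as did 98.3% of root-only regions with a mean of 1000 bp or more.

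Genes with known root functions stood beside these regions. In all, 1637 of 27432 protein-coding genes (5.97%) had a root-only region with the midpoint in the body or within 1 kb. The share was 35.7% (5 of 14) for root specialised metabolism, 34.1% (14 of 41) for nutrient uptake, 28.6% (8 of 28) for root hair and epidermal fate, 24.3% (9 of 37) for endodermis and suberin, 21.4% (3 of 14) for root vascular tissue and 16.1% (5 of 31) for root meristem, cap and lateral roots. It was 10.2% (6 of 59) for the cytokinin pathway. None of 30 leaf and photosynthesis genes and none of 8 broadly used genes had one, although 15 and 8 of them had a root-and-shoot region. The lists were drawn up with earlier results of these data known, so the shares are given with no test.

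**Figure D2:**
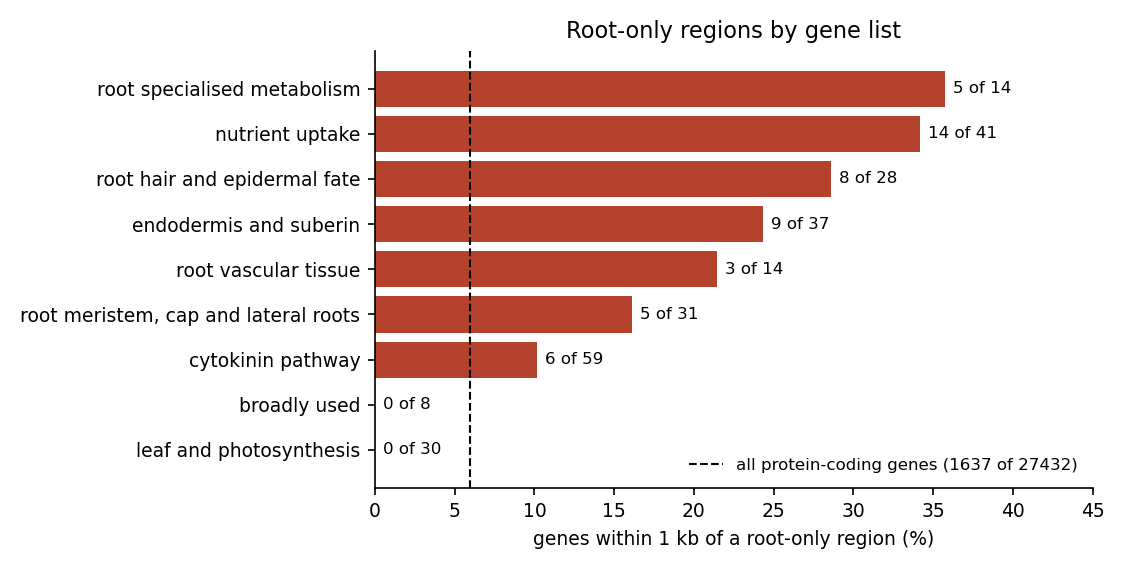
Percent of the genes of each list (horizontal axis) with a root-only region in the body or within 1 kb, with the counts beside the bars. The dashed line is the share of all protein-coding genes, 5.97%. The 6 lists of root tissues and functions range from 16.1 to 35.7%, and the leaf and broadly used lists are at 0. In lists of their size, counts of 0 are near the share of all genes.

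Among nutrient uptake genes the shares were highest for phosphate and sulfate and for iron, and differences between nutrients were not tested. Of 8 phosphate and sulfate genes, 6 had a root-only region (PHT1;1, PHT1;2, PHT1;4, PHT1;8 and PHT1;9, which belong to the plasma membrane phosphate transporter family, and SULTR1;1, a high-affinity sulfate transporter). Of 14 iron genes it was 7, namely IRT1 and IRT2, iron transporters, FRO2, the ferric reductase of the root surface, bHLH38 and bHLH39, transcription factors of the iron deficiency response, which share a region, F6'H1, which makes the precursor of coumarins that mobilise iron, and ABCG37, a coumarin exporter. Of 14 nitrogen genes it was 1, NRT2.4, a high-affinity nitrate transporter. None of 5 potassium, sodium and boron genes had one. The nitrogen share, 7.14%, and a count of 0 in a list of 5 are near the 5.97% of all genes.

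The region beside PHT1;1 (chromosome 5, 17400817 to 17403662) had 2308 and 2442 bp under a peak in arr1,10,12 BA, 2351 and 2284 bp in arr1,10,12 control, 2165, 1906, 1950 and 1860 bp in WT BA and 2779, 2267, 1817 and 2035 bp in WT control libraries. At IRT1 (chromosome 4, 10706509 to 10707024) the values were 407 and 375 bp in arr1,10,12 BA, 337 and 409 bp in arr1,10,12 control, 317, 475, 200 and 389 bp in WT BA and 473, 466, 305 and 263 bp in WT control libraries. In both regions the genotypes and treatments overlapped. A second region lay in the body of PHT1;1, with 836 to 1586 bp in WT roots.

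Root hair genes were represented mostly by their transcription factors, 6 of 15 against 2 of 13 genes of hair growth and walls. RHD6, the bHLH factor that starts root hair formation, had a root-only region on both sides. The wider of them (chromosome 1, 24796727 to 24797983) had 1003 and 1061 bp in arr1,10,12 BA, 1249 and 1088 bp in arr1,10,12 control, 1234, 1189, 1252 and 1220 bp in WT BA and 1136, 1125, 1249 and 1249 bp in WT control libraries. RSL4, a bHLH factor that sets hair length, had 2 regions too, 2056 and 979 bp wide. MYB23, a MYB factor of epidermal cell fate, had 2, and AT2G14760 and AT5G43175 had 1 each. WER, the MYB factor that specifies cells without hairs, had a small one 955 bp from the gene (chromosome 5, 4765551 to 4766028). It had a peak of 258 bp in arr1,10,12 BA library 1 and of 200 bp in arr1,10,12 control library 1, and none in the other two, against 200, 351, 200 and 304 bp in WT BA and 272, 200, 478 and 404 bp in WT control libraries. The hair growth genes were EXPA7, a root hair expansin, and AHA7, a proton pump gene. Their regions lay nearer to the neighbours HPR3 and AT3G60328.

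Over the 11 root hair and epidermal regions the median difference of BA from control in WT roots was -0.17 on the log2 scale, with 3 above 0 and none called by limma. In 9 of the 11 there was a peak in all 4 arr1,10,12 libraries, the exceptions being those of WER and AT5G43175. Over all root-only regions the share was 87.6%.

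Endodermal and vascular genes had regions in each role. The transcription factor genes were MYB41, a regulator of suberin, and JKD and NUC, zinc finger factors that act with SHORT-ROOT. CASP1, a scaffold protein of the Casparian strip, and AT1G61590 came from the Casparian strip group. CYP86B1, a fatty acid hydroxylase, FAR4, a fatty alcohol-forming reductase, and ABCG2, an exporter, serve suberin. In the vascular list they were PHO1, which loads phosphate into the xylem, BRX, a protophloem regulator, and SKOR, the outward potassium channel of the stele. The SKOR region was 947 bp from that gene and nearest to AT3G02860 (chromosome 3, 624396 to 624977). It had 473 and 567 bp in arr1,10,12 BA, 511 and 505 bp in arr1,10,12 control, 358, 384, 339 and 336 bp in WT BA and 469, 432, 463 and 514 bp in WT control libraries. The WT BA libraries were below all others, with a difference of -0.29 from WT control (SE 0.0906, limma adjusted p = 0.939). Among meristem and lateral root genes they were PLT2, a stem cell transcription factor, UPB1, a bHLH factor of the transition to differentiation, PIN2, the auxin efflux carrier of epidermis and cortex, and LBD16 and LBD29, which act in lateral root initiation. All 10 endodermal regions had a peak in all 4 arr1,10,12 libraries, and so did 3 of 4 vascular and 5 of 6 meristem and lateral root regions. The exceptions were the smaller of 2 regions at PHO1 and the one in PIN2. With 87.6% of all root-only regions having a peak in all 4, these counts are near the background.

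In the cytokinin pathway the root-only regions lay at genes of hormone metabolism and transfer, and none lay at the listed response genes. They were CYP735A1 and CYP735A2, which hydroxylate the side chain to make trans-zeatin forms, LOG2 and LOG8, which release the active base, CKX2, a cytokinin oxidase, and AHP1, a phosphotransfer protein. AHP1 (chromosome 3, 7579340 to 7581499) had 1791 and 1797 bp in arr1,10,12 BA, 1806 and 1797 bp in arr1,10,12 control, 1850, 1944, 1868 and 1802 bp in WT BA and 2027, 1839, 1861 and 2001 bp in WT control libraries. CKX2 (chromosome 2, 8445120 to 8445977) had 606 and 663 bp in arr1,10,12 BA, 439 and 713 bp in arr1,10,12 control, 808, 594, 719 and 578 bp in WT BA and 455, 419, 787 and 470 bp in WT control libraries. In both the treatments overlapped. None of 10 type-A regulators, 8 type-B regulators and 8 early response genes had one, while 7, 7 and 8 of them had a root-and-shoot region. With 5.97% of all genes near a root-only region, counts of 0 in lists of this size are near the background.

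The 5 genes of root specialised metabolism all belong to triterpene clusters. Beside THAS, THAH and CYP705A5, described further on, they were MRN1, marneral synthase, and CYP705A12 of the marneral cluster. Their regions overlapped between the genotypes, with 251 to 526 bp at MRN1 and 873 to 1279 bp at CYP705A12 in WT roots.

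Outside these lists, cytochrome P450 genes of the CYP705A subfamily are a group chosen after its values were seen. Of 24 genes so named, 16 had a root-only region (66.7%) and none had a shoot-only region (a peak in all 4 shoot and no root library). For all 239 cytochrome P450 genes it was 33 (13.8%). Of 31 genes with expansin names 7 had a root-only region (22.6%), and of 125 with MYB factor names 21 (16.8%). Of 127 with ABC transporter names it was 16 (12.6%), and of 44 with aquaporin-like names 2 (4.55%). All these groups were drawn by gene name alone and may hold genes outside the family, so their totals are approximate. Several regions were close neighbours. The genes CYP705A19, CYP705A20, CYP705A21, CYP705A22, CYP705A23 and AT3G20150 form a run of 6 adjacent genes with 4 root-only regions. AT5G47980, CYP705A5, THAH and THAS form another with 5 regions. These runs were also chosen after their values were seen. How reads from similar tandem copies were placed is not given in the sources used here, so that lengths at such genes are uncertain.

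Most genes had a single root-only region. There were 1482 genes with 1, 141 with 2 and 14 with 3, and in locus order the first 5 of the 14 were AT1G23150, WRKY14, AT1G43040, JAZ4, a repressor of jasmonate signalling, and AT2G02635. Of the 1637 genes, 880 (53.8%) also had a root-and-shoot region and 757 did not. A shoot-only region stood beside 13 of the 1637 (0.794%), against 2.74% of all protein-coding genes. The 10 of these 13 with the widest root-only region were AT5G59990, AT3G01890, ATGA2OX1, a gibberellin-inactivating enzyme, AT3G46680, FD, the bZIP partner of the flowering signal FT, AT3G61310, AT4G08360, MYB42, BRX and DRT101.

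The next question was whether these regions were open in roots that lack ARR1, ARR10 and ARR12, whose libraries the rule did not use. Most were. A peak lay in 92.6% and 96.7% of the 1284 regions in arr1,10,12 BA libraries 1 and 2 and in 94.2% and 96.7% in arr1,10,12 control libraries 1 and 2. The mean of the 4 was 95.1% ± 2.02 (SD). For root-and-shoot regions the values were 98.4, 99.3, 98.9 and 99.5% in the same order of libraries. All 4 arr1,10,12 libraries had a peak in 1125 root-only regions (87.6%). Of all regions near genes with a peak in all 8 WT root libraries it was 96.6%. With a peak in 1, 2 or 3 shoot libraries as well, the share was 86.0, 85.3 and 88.3%, and with 4 it was 98.3%. For root-only regions far from genes it was 84.7%. Of the other root-only regions near genes, 96 had a peak in 3 arr1,10,12 libraries, 38 in 2, 19 in 1 and 6 in none.

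Left-out WT libraries also lacked a peak in part of the regions. When a WT root library was left out of the rule and the regions chosen from the other 11 libraries were read in it, 89.5% (BA 3) to 99.1% (control 2) of them had a peak, with a mean of 96.1% ± 3.11 (SD, n = 8). The shares of the 4 arr1,10,12 libraries, read over the 1284 regions, lay within the range of the 8 WT libraries, each read over a larger set. In the same sets of regions the mean over the arr1,10,12 libraries was 92.7 to 95.0%. That mean was above the left-out library for BA 3 (92.7 against 89.5%) and BA 4 (94.1 against 94.0%). It was below the left-out library for all other WT root libraries, as for control 2 (94.8 against 99.1%). A WT shoot library left out of the rule had a peak in 4.25 to 10.0% of the regions chosen without it. The share with a peak was lower for shorter regions. All 4 arr1,10,12 libraries had a peak in 62.5% of root-only regions with a mean WT covered length under 300 bp, in 81.1% from 300 to under 500 bp, in 95.4% from 500 to under 1000 bp and in 98.3% from 1000 bp. For root-and-shoot regions of the same lengths the shares were 70.1, 94.3, 98.8 and 99.9%.

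**Figure D3:**
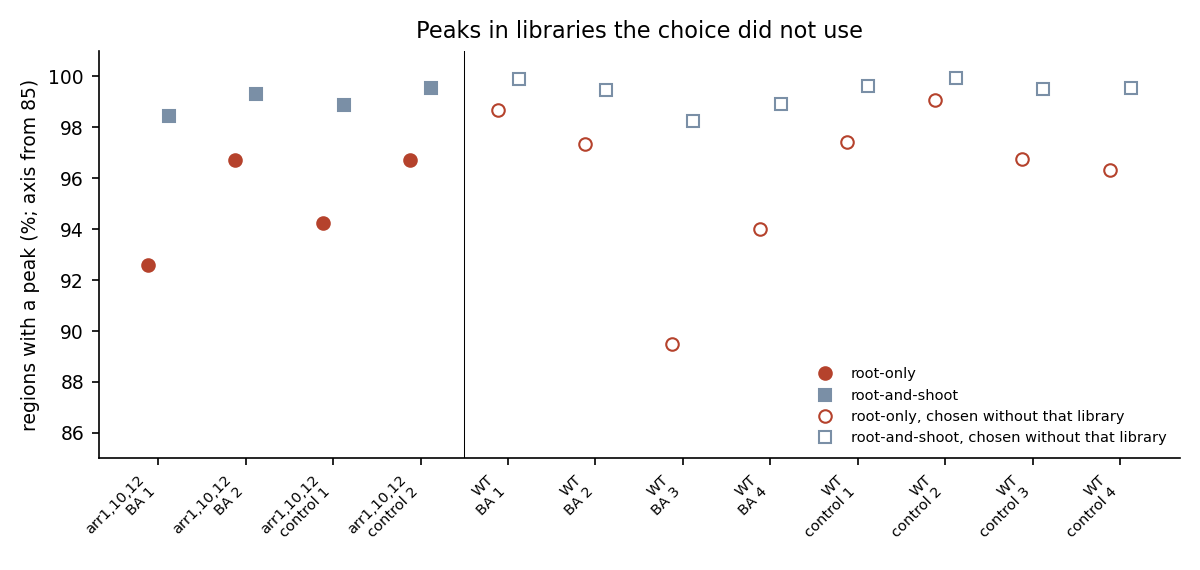
Percent of regions with a peak (vertical axis, starting at 85%) in libraries that had no part in choosing them, for root-only (red circles) and root-and-shoot regions (grey squares). Filled symbols are the 4 arr1,10,12 libraries, and open symbols are the 8 WT root libraries, each read for regions chosen without it. The red circles run from 92.6 to 96.7% in arr1,10,12 and from 89.5 to 99.1% in WT roots.

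Of the 1284 regions, 6 (0.467%) had no peak in any arr1,10,12 library. Of all regions near genes with a peak in all 8 WT root libraries it was 0.116%. With a peak in 1, 2, 3 or 4 shoot libraries as well, it was 0.677, 0.240, 0.779 and 0.0391%. The 6 root-only regions were at MLP34, AT2G35155, TLL1, AT2G43470, UGT75B2 and AT3G60961. The largest was over MLP34, a major latex protein-like gene (chromosome 1, 26714917 to 26715708), with 658, 597, 636 and 543 bp in WT BA and 744, 535, 448 and 200 bp in WT control libraries. At AT2G35155 (chromosome 2, 14818496 to 14819307) the values were 790, 517, 312 and 323 bp in WT BA and 486, 803, 200 and 274 bp in WT control libraries. A second root-only region of MLP34 (chromosome 1, 26716180 to 26718658) had a peak in all 4, with 1075 and 1625 bp in arr1,10,12 BA and 1129 and 1313 bp in arr1,10,12 control libraries. The peaks of the other 4, among them those of TLL1, a lipase-like gene, and UGT75B2, a glycosyltransferase gene, spanned 200 to 570 bp in WT libraries. 

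LOG2 had the largest mean WT covered length among the 19 regions with a peak in 1 arr1,10,12 library. Its region (chromosome 2, 15113706 to 15115198) had 450 bp under a peak in arr1,10,12 BA library 1 and 0 bp in BA library 2 and in both arr1,10,12 control libraries. In WT roots it had 886, 1493, 868 and 830 bp with BA and 615, 731, 531 and 400 bp in control libraries. All 4 WT BA libraries were above all 4 control libraries. The difference of BA from control in WT roots was 0.94 on the log2 scale (SE 0.232), and limma gave an adjusted p of 0.939 over all regions tested. LOG2 was too incomplete in arr1,10,12 roots to enter the test of genotypes.

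Lengths were then compared between arr1,10,12 and WT roots, over both treatments, in the regions with a peak in all 12 root libraries. Of 20132 such regions, limma called 86 (0.427%) at an adjusted p under 0.05. Of these, 83 (0.412%) were shorter in arr1,10,12 and 3 (0.0149%) longer. Among the 1125 root-only regions tested it called 5 (0.444%), all shorter in arr1,10,12, a share near that of all regions. This fit takes the 12 libraries as independent, although WT libraries of the same replicate number deviated together. With a correlation of 0.349 estimated between libraries of the same genotype and number, limma called 40 of all regions (0.199%) and 1 root-only region. With 1 mean for each genotype and number, 4 in WT and 2 in arr1,10,12, it called 0 of all regions and 0 root-only regions. There, 1491 of 20132 regions and 126 of 1125 root-only regions had an unadjusted p under 0.05. Both fits were added after seeing the data, and the 5 calls depend on this choice. In the fit of independent libraries, at an unadjusted p under 0.05, there were 172 root-only regions (15.3%), against 10.6% of all. The median difference of arr1,10,12 from WT was 0.04 on the log2 scale for root-only and 0.01 for all regions. Without centring both turned, to -0.0039 for root-only and -0.032 for all regions, and the share of root-only regions longer in arr1,10,12 was 59.4% with centring and 49.6% without it. In uncentred lengths, all 4 arr1,10,12 libraries were below all 8 WT libraries in 15 root-only regions (1.33%, against 1.57% of all) and above them in 6 (0.533%, against 0.164%). The labels give no batch, and a batch between genotypes cannot be told apart from the genotype.

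Firmest of the 5 was the region between AT3G45070, a sulfotransferase gene, and AT3G45080 (chromosome 3, 16487187 to 16488173). It had 626 and 571 bp in arr1,10,12 BA, 474 and 504 bp in arr1,10,12 control, 978, 953, 873 and 872 bp in WT BA and 860, 878, 773 and 843 bp in WT control libraries. Every arr1,10,12 library was below every WT library. The difference was -0.65 on the log2 scale (SE 0.0713, adjusted p = 0.00354), and it was called in 17 of 18 alternatives. Among them was the fit with an estimated correlation (adjusted p = 0.0143), and the exception was the fit on means per replicate number (adjusted p = 0.129).

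The region 182 bp from F6'H1 (chromosome 3, 4448613 to 4449541) had 531 and 576 bp in arr1,10,12 BA, 625 and 562 bp in arr1,10,12 control, 827, 911, 868 and 870 bp in WT BA and 828, 868, 769 and 830 bp in WT control libraries. Again the genotypes did not overlap. The difference was -0.52 (SE 0.0769, limma adjusted p = 0.0162). The call was kept in 13 of 18 alternatives and lost with an estimated correlation (adjusted p = 0.0645), on means per replicate number (0.207), and without arr1,10,12 BA library 1 (adjusted p = 0.0591), BA library 2 (0.0611) or control library 2 (0.0506). None of the other 12 nutrient uptake regions tested was called, and over the 13 the median difference was 0.18, with 12 above 0.

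At AT5G53080 (chromosome 5, 21523057 to 21523493) the lengths were 200 and 264 bp in arr1,10,12 BA, 200 and 302 bp in arr1,10,12 control, 437, 367, 336 and 305 bp in WT BA and 426, 403, 431 and 427 bp in WT control libraries. AT2G22930 (chromosome 2, 9759217 to 9759808) had 336 and 336 bp in arr1,10,12 BA, 200 and 321 bp in arr1,10,12 control, 522, 494, 423 and 412 bp in WT BA and 509, 535, 414 and 412 bp in WT control libraries. In both, each arr1,10,12 library was below each WT library. The differences were -0.66 (SE 0.105, limma adjusted p = 0.0212) at AT5G53080 and -0.62 (SE 0.113, adjusted p = 0.0480) at AT2G22930. The call at AT5G53080 was lost with an estimated correlation (adjusted p = 0.0976), on means per replicate number (0.186), and without WT BA library 2 (adjusted p = 0.0602), WT control library 3 (0.0510), arr1,10,12 BA library 1 (0.101) or arr1,10,12 control library 1 (0.0985). That at AT2G22930 held in 2 of 18 alternatives, without WT BA library 4 or without arr1,10,12 control library 2. Its adjusted p was 0.187 with an estimated correlation, 0.230 on means per replicate number and 0.158 without arr1,10,12 control library 1.

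With 1 WT library left out, 1125 root-only regions and 20151 to 20367 of all regions were tested. Limma called 0.292 to 0.792% of all, the most without WT control library 1 (160, of them 7 root-only). The number of root-only regions called also followed the libraries used. It was 1 of 68 called over all regions without arr1,10,12 BA library 1, 2 of 59 without WT BA library 2 and 3 of 59 without WT BA library 1. It was 3 of 72 without WT control library 2 and 3 of 47 without arr1,10,12 control library 1. It was 8 of 96 without arr1,10,12 control library 2 and 9 of 108 without WT BA library 4. Some were longer in arr1,10,12, namely 3 without WT BA library 4, WT control library 1 or WT control library 4, 2 without WT control library 3 and 1 without WT BA library 3.

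**Figure D4:**
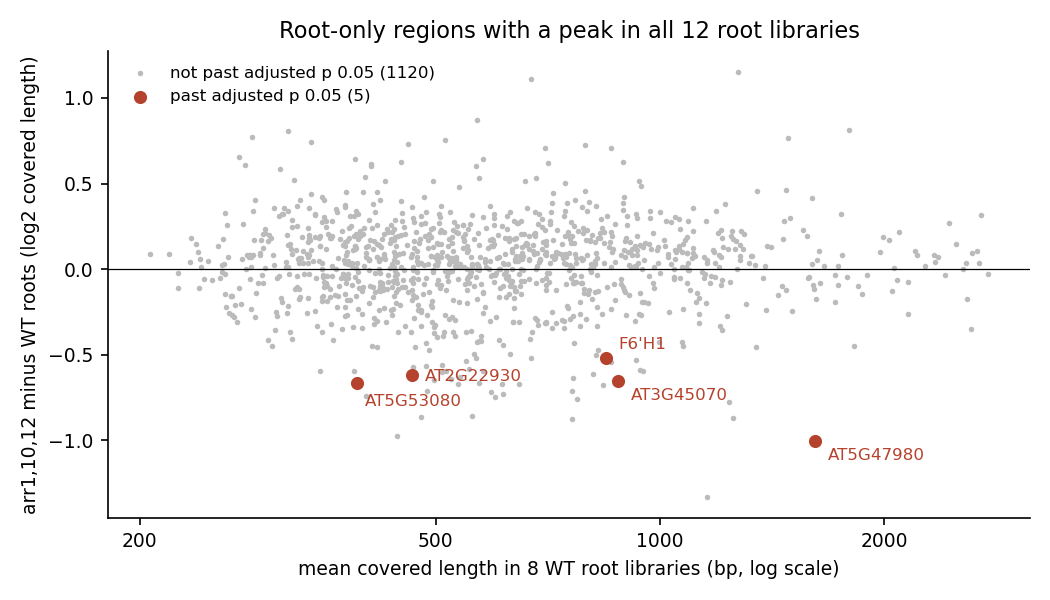
Difference of arr1,10,12 from WT roots in log2 covered length (vertical axis) against mean covered length in the 8 WT root libraries in bp on a log scale (horizontal axis), 1 point for each of the 1125 root-only regions tested. The 5 red points are past an adjusted p of 0.05 with libraries taken as independent and lie between -1.01 and -0.52. The grey points lie on both sides of 0.

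The fifth call, the widest of the 5 in WT roots, belongs to the run of 4 neighbouring genes on chromosome 5 that includes THAS, thalianol synthase, THAH, thalianol hydroxylase, and CYP705A5, a cytochrome P450 gene of the same triterpene cluster. The region beside AT5G47980 (chromosome 5, 19426966 to 19429138) had 717 and 963 bp in arr1,10,12 BA, 480 and 915 bp in arr1,10,12 control, 1924, 2171, 1994 and 2121 bp in WT BA and 1323, 1286, 800 and 1307 bp in WT control libraries. WT BA libraries were above all others, and arr1,10,12 overlapped with WT control library 3. The difference of arr1,10,12 from WT was -1.01 (SE 0.167, limma adjusted p = 0.0288). It was called in 8 of 18 alternatives. It was lost with an estimated correlation (adjusted p = 0.107), on means per replicate number (0.182), and without WT BA library 1 (adjusted p = 0.0570), 2 (0.0772) or 3 (0.0519), WT control library 2 (0.0644) or 4 (0.0552), arr1,10,12 BA library 1 (0.119) or 2 (0.0639), or arr1,10,12 control library 1 (0.108).

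The other regions of the run had the same order of means. None of the 3 that entered the test of genotypes passed it, and the second THAH region, with a peak in 3 arr1,10,12 libraries, did not enter it. One over THAH (chromosome 5, 19443504 to 19445216) had 609 and 658 bp in arr1,10,12 BA, 200 and 364 bp in arr1,10,12 control, 1357, 1713, 1325 and 1240 bp in WT BA and 1192, 1126, 366 and 925 bp in WT control libraries. Beside THAS (chromosome 5, 19455547 to 19457159) the values were 976 and 1015 bp in arr1,10,12 BA, 820 and 981 bp in arr1,10,12 control, 1360, 1596, 1379 and 1523 bp in WT BA and 1393, 1406, 1021 and 1097 bp in WT control libraries. The differences of arr1,10,12 from WT were -1.33 (SE 0.282, limma adjusted p = 0.0883) over THAH and -0.45 (SE 0.0949, adjusted p = 0.0870) beside THAS. Without WT control library 3 the THAH region was called, with a difference of -1.52 and an adjusted p from limma of 0.00408.

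CYP705A5 (chromosome 5, 19434315 to 19435147) had 420 and 481 bp in arr1,10,12 BA, 373 and 379 bp in arr1,10,12 control, 611, 688, 652 and 579 bp in WT BA and 630, 524, 354 and 419 bp in WT control libraries. The second THAH region (chromosome 5, 19446664 to 19448070) had 252 and 777 bp in arr1,10,12 BA, 0 and 597 bp in arr1,10,12 control, 1380, 1407, 1215 and 1086 bp in WT BA and 1268, 1030, 469 and 1294 bp in WT control libraries. In both, WT BA had the highest mean and arr1,10,12 control the lowest, and WT control libraries overlapped with other groups. WT control library 3 was the lowest WT library in each of the 5 regions. Without it the difference of arr1,10,12 from WT was -1.09 at AT5G47980 (limma adjusted p = 0.0116) and -0.49 at THAS (adjusted p = 0.0545).

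**Figure D5:**
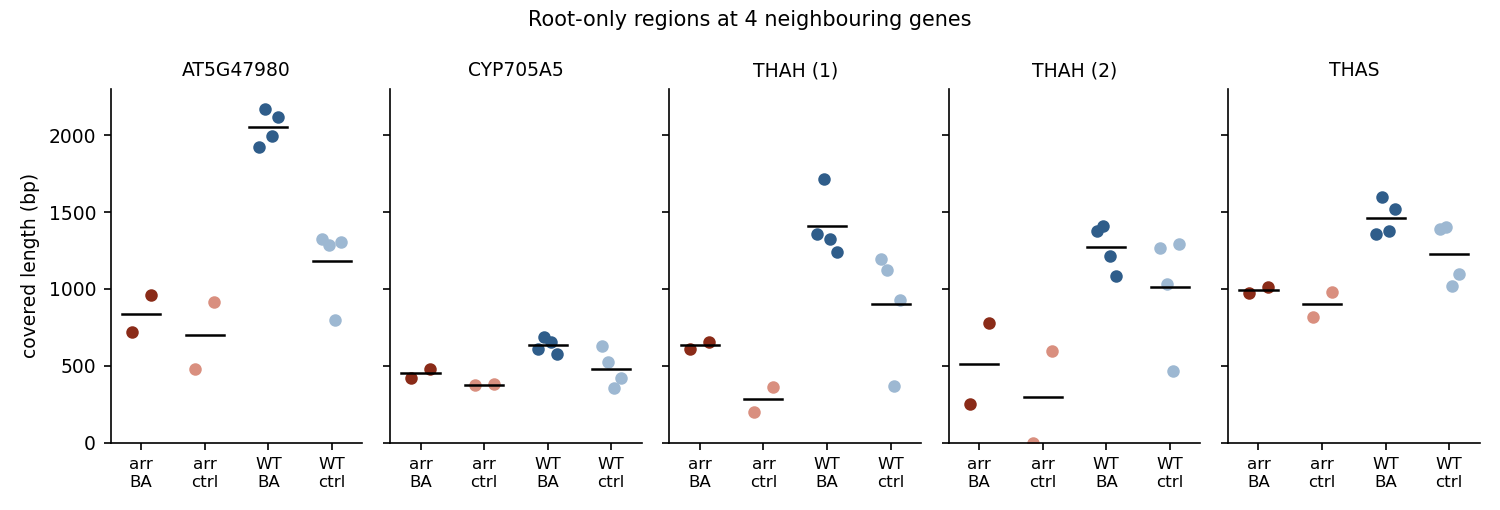
Covered length in bp (vertical axis) of the 5 root-only regions at AT5G47980, CYP705A5, THAH and THAS in each root library, by group (arr is arr1,10,12, ctrl is control). Points are libraries and bars are means. WT BA has the highest mean in each panel and arr1,10,12 control the lowest.

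In WT roots the effect of BA was tested over the 8 root libraries, taken as independent. Lengths differed between libraries as a whole, with medians over all regions of 706 to 779 bp in BA and 774 to 841 bp in control libraries, and each library was centred on its median. Limma called none of the 20943 regions (0%) and none of the 1284 root-only regions. At an unadjusted p under 0.05 there were 83 root-only regions (6.46%), against 4.05% of all. With the replicate number as a block it also called none. In that fit 143 of 1284 root-only regions and 1387 of 20943 regions had an unadjusted p under 0.05. With BA, 54.0% of the root-only regions were longer after centring and 27.6% without it, where the median of all regions moved by -0.11 on the log2 scale. The median of the root-only regions was 0.02 with centring and -0.094 without it. In uncentred lengths, all 4 BA libraries were above all 4 control libraries in 7 root-only regions (0.545%, against 0.363% of all regions) and below them in 47 (3.66%, against 3.07%).

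The smallest p-values among root-only regions belonged to CYP735A2, AT5G47980 and CASP1. In the region over CYP735A2 (chromosome 1, 25061437 to 25063408) there were 1263 and 1214 bp in arr1,10,12 BA, 1147 and 1216 bp in arr1,10,12 control, 1961, 1696, 1693 and 1613 bp in WT BA and 1157, 1310, 1322 and 1271 bp in WT control libraries. The 4 WT BA libraries were above all other root libraries. The difference of BA from control was 0.57 in WT roots (SE 0.0904, limma adjusted p = 0.611).

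CASP1 had the opposite sign. Its region (chromosome 2, 15160739 to 15161391) had 200 and 574 bp in arr1,10,12 BA, 308 and 461 bp in arr1,10,12 control, 307, 308, 200 and 200 bp in WT BA and 591, 640, 425 and 645 bp in WT control libraries. The WT BA libraries were below the WT control libraries, and arr1,10,12 overlapped with both. The difference of BA from control in WT roots was -1.08 (SE 0.193, limma adjusted p = 0.677), against 0.94 at AT5G47980 (SE 0.164, adjusted p = 0.677). The comparison of genotypes at AT5G47980 uses the same WT libraries. Over the 6 cytokinin pathway regions the median difference of BA from control in WT roots was 0.36, with 5 above 0. Over the 6 regions of root specialised metabolism it was 0.45, with 5 above 0, and over all 1284 root-only regions it was 0.02.

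In arr1,10,12 roots limma called none of 21475 regions (0%) for BA against control, and none of the 1125 root-only ones. At an unadjusted p under 0.05 there were 43 root-only regions (3.82%), against 2.95% of all. With BA, 59.8% of them were longer after centring and 40.6% without it. With 2 libraries on each side the count depended on single libraries: it was 2 of 31 called over all regions without arr1,10,12 BA library 1, 3 of 39 without BA library 2 and 3 of 36 without control library 2, fits in which the lone library is taken to vary like the other group. The BA effect in arr1,10,12 minus that in WT roots passed the test in none of 20132 regions (0%), and 32 root-only regions (2.84%) had an unadjusted p under 0.05, against 2.03% of all. These counts do not show that BA acts alike in both genotypes.

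The authors' deposited list of root regions that differ between BA and control overlapped 33 of the 1284 root-only regions (2.57%), against 2.62% of all regions with a peak in all 8 WT root libraries. Their shoot list overlapped none of them, against 2.31% of root-and-shoot regions, and the rule itself asks for no shoot peak. The 10 widest overlaps were at AT2G20080 (a pair of regions), AT5G47980, AT5G47950, AT3G45700, AT3G19400, AT1G44160, THAH, AT4G03540 and LOG2. As the authors chose their list on these libraries and it gives no direction, the following are descriptions. Of 38 listed regions inside root-only regions, 24 had a higher mean covered percent with BA in WT roots. The 1 at AT1G60095 had a lower one, and 13 were equally covered. Any difference of means was counted, from 0.370 points at AT3G45680 to 38.3 at CYP81F3. At MEE15 it came from WT control library 1 alone (81.4%, against 100% in the other WT root libraries). The same count over the other listed root regions was not made. In the listed region inside LOG2, 358 bp wide, the covered percent averaged 34.9% in arr1,10,12 BA, 0% in arr1,10,12 control, 99.2% ± 1.68 in WT BA and 73.0% ± 22.7 in WT control libraries (SD, n = 4 for WT). In the widest one at AT5G47980, 758 bp wide, it averaged 68.5% in arr1,10,12 BA, 55.1% in arr1,10,12 control, 100% in each WT BA library and 82.2% ± 5.69 in WT control libraries. At AT1G60095 it was 93.8% in arr1,10,12 BA, 74.8% in arr1,10,12 control, 80.4% ± 3.70 in WT BA and 100% in each WT control library.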

How the data were processed

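ATAC-seq was analysed in 16 libraries. The build was TAIR10, and HOMER 4.9.2, deepTools 2.5.2, SAMtools 1.5 and Bowtie 1.2.0 are named, per the submitters' processing notes. The role of each tool is not given in the sources used here. The authors deposited 1 peak list per library and 2 lists of differential regions, as coordinates with no score, count or fold. Depth is unknown.

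Overlapping WT peaks were merged, and gene distance was taken from the midpoint to 27432 protein-coding genes of a RefSeq table of TAIR10.1 (no strand). On each chromosome the shift that put most gene ends under a peak was 0 bp. Printed coordinates come from the files, 1-based.

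The covered length was tested as log2 with limma 3.58.1 (R 4.3.3), each library centred on its median, over all regions with a peak in every library of the fit, two-sided, with Benjamini-Hochberg adjustment and a threshold of 0.05. The main fits took the libraries as independent. Scripts were tested on simulated data. Regions were named by list membership, width, absence from arr1,10,12, calls, overlap with the authors' list, and genes with several regions or with both kinds. A region bears the gene over or nearest to its midpoint. The regions and gene lists were chosen with earlier results of these data known.

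In WT roots, deviations from the treatment mean correlated at 0.189 to 0.424 between libraries of the same replicate number and at -0.273 to 0.147 between other numbers over 20943 regions, so the numbers pair these libraries. The sources do not say what the number marks. A listed gene that is counted but not named is not reported here.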

Additional observations from a re-analysis of the deposited data

Results flagged for a closer look

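The check took the regions with values printed for every library, except those at AHP1 and CKX2, and the shares of libraries left out of the rule. In it, 44 groups of 4 libraries were searched for a library far from the other 3, and 2 held one. Chance alone gives such a library in about 1 group in 20. At AT5G47980 WT control library 3 had 800 bp, against 1286 to 1323 bp in the other 3 WT control libraries. Without it the difference of arr1,10,12 from WT roots stayed called. At LOG2 WT BA library 2 had 1493 bp, against 830 to 886 bp in the other 3 WT BA libraries. Its part in the difference between BA and control at LOG2 was not tested. At CKX2, outside the check, WT control library 3 also stood apart, with 787 bp against 419 to 470 bp in the other 3 WT control libraries.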

How the results depend on the processing

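The number of root-only regions, 1284, became 476 with gene bodies alone and 2095 with a peak in at least 6 of 8 root libraries, and was 1296 to 1435 with 1 library left out. The mean share with a peak in arr1,10,12 libraries, 95.1%, was 90.2% with at least 7 of 8 root libraries, 84.0% with at least 6, and 92.7 (without WT BA library 3) to 95.9% with 1 library left out. The overlap with the authors' root list, 33, was 9 with gene bodies alone and 33 to 37 with 1 library left out. Gene lists lost most with gene bodies alone (root hair 1, nutrient uptake 5, specialised metabolism 2). The leaf list had 1 gene without WT control library 4. The share found in left-out WT libraries moved by less than its SD under 5 settings chosen after seeing the data.

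With a peak required in at least 50% of the libraries and 50 bp added before the log, more regions entered the tests. Between genotypes limma called 33 of 1284 root-only regions and 212 of all 25177 regions, against 86 of 20132 in the main fit. For BA in arr1,10,12 it called 7 of 1259 root-only regions and 322 of all 25374. For the difference of BA effects it called 6 of 1284 and 28 of 25177, and for BA in WT roots 0 of 1284 and 24 of 25859. In that setting regions without a peak in some arr1,10,12 libraries enter, while the rule asks for one in every WT root library. With 1 library left out the counts were 1 to 9 between genotypes, 0 to 3 for BA in arr1,10,12, 0 for BA in WT roots and 0 for the difference of effects. With the replicate number as a block, limma called 0 root-only regions for BA in WT roots, 0 in arr1,10,12 and 0 for the difference of effects. The pairing changed no call there. For BA in WT roots, 143 of 1284 root-only regions and 1387 of 20943 regions had an unadjusted p under 0.05 with the block. Between genotypes, 2 fits of the replicate pairing added after seeing the data called 1 root-only region (estimated correlation) and 0 (1 mean per replicate number), against 5. Single regions were followed under the alternatives only for the 5 calls, THAH and THAS between genotypes, and for CYP735A2, AT5G47980 and CASP1 with BA in WT roots. None changed its sign. They were picked for calls or small p-values or as neighbours of a call, so this does not speak for other root-only regions. The median over root-only regions did turn in each of the comparisons. For BA in WT roots it was -0.094 without centring and -0.0013 without WT control library 3. For arr1,10,12 against WT it was -0.0039 without centring, and for BA in arr1,10,12 it was -0.031 without centring. For the difference of BA effects it was -0.011 without arr1,10,12 control library 2. The unknown depth limits all lengths near 200 bp.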
